A study of Mus musculus with 2 samples.

Results

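The 10 genes described here sense low oxygen or respond to it, and they were followed through the cell types of the mouse cerebral cortex after white matter injury (WMI). The members were Hif1a, Epas1, Arnt, Egln1, Egln3, Vegfa, Bnip3, Pdk1, Ldha and Ddit4, and they were chosen by symbol, as 10 of the 55450 genes in the count table. Each symbol matched 1 gene, and every member had UMIs (unique molecular identifiers, the counted RNA molecules) in both libraries. The measurement was droplet RNA sequencing of single cells or nuclei in 2 libraries, 1 from control and 1 from injured cortex. C57BL/6 mice, labelled as 2 weeks old, made up both groups. Per the labels, the right common carotid artery was ligated on postnatal day 7 under 1 h of hypoxia in the WMI group, and the cortex of that side was collected on postnatal day 14, together with the same side of control mice. The sample annotation used here carries the same surgery day and 1 h of hypoxia for both groups. The labels do not make clear whether the control mice were exposed to hypoxia, how many animals were pooled or of which sex they were. In the study's results the control is the unaffected side of the brain, and a figure legend names sham hemispheres, whereas the labels name control mice. A control side of the same mouse would have shared its hypoxia. The sex of the cells, given below, differed between the libraries, so they were not the 2 sides of the same set of mice. The study's methods describe an earlier surgery, a longer hypoxia and dissociated cells, whereas the labels describe nuclei. If nuclei were used, as the labels say, the levels below are those of nuclear RNA and need not follow those of whole cells. Barcodes are called cells here in either case. The study's methods also report replicates of each group, while the data used here held 1 library per group. Days therefore lay between the hypoxia and the measurement in either account, and the levels below are not those of the acute response.

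In normal oxygen the prolyl hydroxylases encoded by Egln1 and Egln3 mark the HIF alpha subunits for destruction through the VHL ubiquitin ligase. When oxygen is short the alpha subunits, HIF-1α (Hif1a) and HIF-2α (Epas1), persist, pair with the constant partner ARNT (Arnt) and bind DNA at the hypoxia response element. This control acts on protein, so RNA levels of Hif1a, Epas1 and Arnt do not report the activity of the factors. Among the targets, Vegfa is the main growth signal for blood vessels, Bnip3 acts in the removal of mitochondria, Pdk1 holds back pyruvate entry into mitochondria, Ldha makes lactate, and Ddit4 (REDD1) restrains mTORC1. Egln3 is a sensor and also a well known target of HIF.

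Hif1a, Egln1 and Bnip3 were the members called higher in WMI microglia-like cells by a rule of size given below. The bases before their RefSeq start sites are shown to let a reader see the element in place. Those of Egln3, a sensor that is also a target, are shown with them. The Hif1a start used lies 6492 bases inside the gene, past the start of the span given below. The sequences are RefSeq promoters on GRCm38, read 5′ to 3′ on the strand of the gene. Capitals mark the core of the hypoxia response element, ACGTG or GCGTG, found on either strand. CACGTG holds ACGTG on both strands and so counts as 2 matches.
Hif1a, chr12:73907712-73907821, plus strand: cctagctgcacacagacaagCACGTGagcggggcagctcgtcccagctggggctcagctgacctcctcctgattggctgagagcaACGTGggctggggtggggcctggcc
Egln1, chr8:124949298-124949400, minus strand: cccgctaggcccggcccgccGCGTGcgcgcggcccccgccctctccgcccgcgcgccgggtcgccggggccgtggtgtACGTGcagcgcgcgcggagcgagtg
Bnip3, chr7:138909517-138909643, minus strand: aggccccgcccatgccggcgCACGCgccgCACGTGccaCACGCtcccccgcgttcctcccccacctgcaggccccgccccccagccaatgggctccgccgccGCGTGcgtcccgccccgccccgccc
Egln3, chr12:54204079-54204123, minus strand: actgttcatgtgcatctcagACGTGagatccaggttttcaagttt

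In the windows of 300 bases, the first Ldha promoter held 7 matches, Bnip3 5, Hif1a 3, Egln1 2, Ddit4 2, Egln3 1 and Arnt 1. Of the paired entries, Pdk1 held 2 and 0, the second Ldha promoter 2, and Vegfa 0 at its main start and 2 at an internal start. The starts of the Hif1a window, the first and second Ldha windows and the second Pdk1 window also lay well inside the gene. They were 6492, 4329, 5607 and 1680 bases past the gene start. Epas1 was not among the promoters matched. ACGTG occurred in 19.6% of 32817 mouse promoters of this length, GCGTG in 32.4% and either in 43.8%. A match is only a run of letters, and nothing was measured here on binding.

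Cells were grouped without the help of the members, which were left out of the genes used for clustering. The clusters, numbered 0 to 33, were named from marker genes, and 6 classes with a named cell type had at least 100 cells in each library. They were excitatory neuron-like (4191 control and 2732 WMI cells), inhibitory neuron-like (469 and 377), astrocyte-like (469 and 573), microglia-like (427 and 1440), OPC-like (oligodendrocyte precursor cells, 319 and 506) and pre-OL-like (premyelinating oligodendrocytes, 154 and 420). The mature OL-like class (95 and 52), the neuroblast-like class (67 and 183) and cluster 26 (58 and 79 cells with markers of both endothelial cells and fibroblasts) are given by level only. Not compared were clusters 0 and 19 (2417 and 144 cells, 27.6% and 1.90% of those kept), neurons whose type could not be named and of which 2283 were control cells of cluster 0, and the unnamed clusters 11, 12 and 26 (123 and 1013 cells, 1.40% and 13.4%). Striatal projection neuron-like (2 and 117) and fibroblast-like cells (22 and 14) were too few in a library. A level is the UMIs of a gene per 1000000 UMIs of the class (CPM), with an exact Poisson 95% interval. Each group had 1 library, so no test between conditions was possible, and each interval covers counting error only, not the spread between animals. Members are called higher or lower where they had at least 100 UMIs over both libraries and differed at least 1.5-fold, a rule of size and not a test.

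The libraries held 66470806 (control) and 60568639 (WMI) UMIs, and 8755 and 7571 cells were kept, with median depths of 4573 and 5209 UMIs. RNA of neurons was found in every class. Snap25, a synaptic gene, stood at 796 CPM in control excitatory neuron-like cells and still at 621 CPM in control microglia-like cells. RNA of microglia was found outside them too, and more of it in WMI. C1qa, a complement gene of microglia, was higher in WMI in each of the other 5 compared classes, from 15.1 to 88.0 CPM in OPC-like, 9.74 to 86.9 CPM in pre-OL-like, 9.37 to 43.4 CPM in excitatory neuron-like and 7.41 to 46.2 CPM in inhibitory neuron-like cells, and to 84.8 CPM in astrocyte-like cells. A low level of a member in a class therefore need not come from that class. The share of mitochondrial UMIs is a sign of RNA quality in cells and of carried-over cytoplasm in nuclei. That share was also higher in WMI, at a median of 0.449% of the UMIs of a cell against 0.061% in control. By class it was 0.245% to 0.829% against 0.0582% to 0.176%. It moved with every comparison of the libraries, and its part in them was not tested. The libraries also differed in sex. Xist, the RNA of the inactive X chromosome, had a UMI in 5 of 8755 control cells and in 4823 of 7571 WMI cells, while 1973 WMI cells had a Y-linked UMI and no Xist. Values in these male WMI cells are given beside the called members. The 2 libraries shared 36 cell barcodes.

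**Figure D1:**
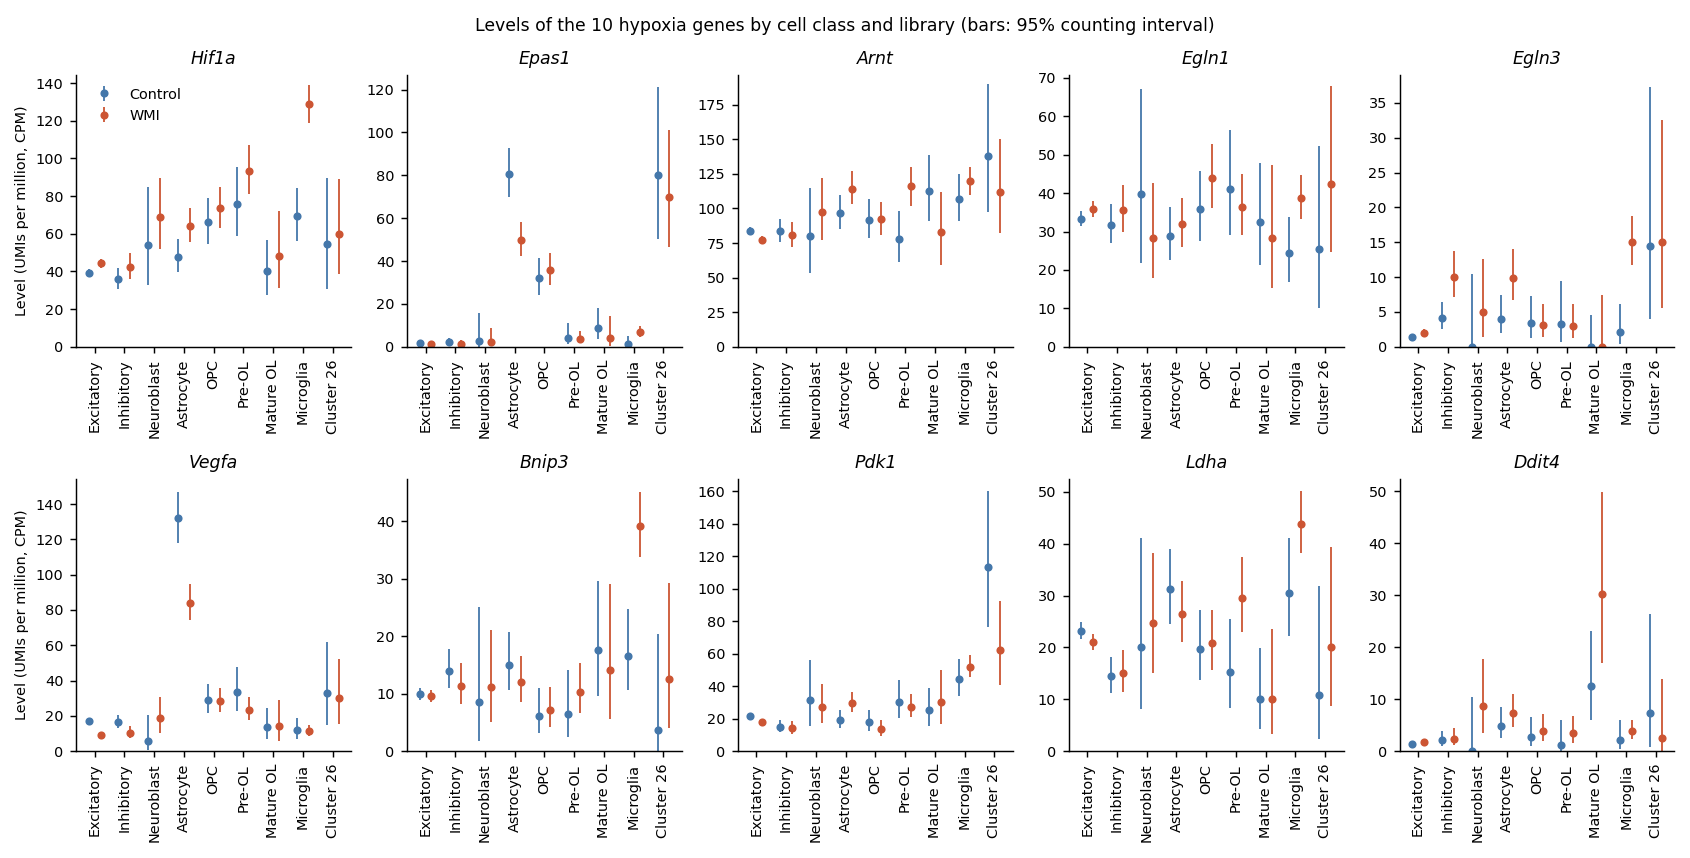
Level of each of the 10 genes (CPM) by cell class, for the control (blue) and WMI (orange) library, with points for levels and bars for exact 95% counting intervals. Epas1 and Vegfa stood highest in astrocyte-like cells among the 6 compared classes (control 80.7 and 132 CPM), while Hif1a and Bnip3 stood highest in WMI microglia-like cells (129 and 39.1 CPM).

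The alpha subunits differed in where they were found. Hif1a (ENSMUSG00000021109, GRCm38 chromosome 12, 73901375 to 73947530, plus strand) was present in every class. In control cells its level ran from 35.8 CPM (30.7 to 41.6) in inhibitory and 39.0 CPM (37.0 to 41.1) in excitatory neuron-like cells to 69.3 CPM (56.4 to 84.3) in microglia-like and 75.8 CPM (59.1 to 95.7) in pre-OL-like cells. No neighbours in the control order were separated by more than counting error. In the WMI library the order was clearer at the top, with microglia-like cells at 129 CPM (119 to 139), pre-OL-like cells at 93.3 CPM (81.3 to 107) and OPC-like cells at 73.5 CPM (63.3 to 84.8). Microglia-like and pre-OL-like cells were each separated from the next group, while OPC-like cells and the groups below were not. Hif1a overlaps Gm49321 on the same strand, as Epas1 does AC096777.1 and Arnt Gm42672, so reads in the overlap are uncertain.

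Epas1 (ENSMUSG00000024140, chromosome 17, 86753700 to 86833410, plus strand) was narrow in its distribution. Control astrocyte-like cells held 80.7 CPM (69.9 to 92.7, 199 UMIs) and cluster 26 held 80.0 CPM (50.1 to 121), levels that could not be told apart. OPC-like cells followed at 32.0 CPM (24.2 to 41.4), below both by more than counting error. Neurons and microglia-like cells were near the floor, at 1.87 CPM in excitatory neuron-like, 2.27 CPM in inhibitory neuron-like and 1.39 CPM in microglia-like control cells. The step from OPC-like to pre-OL-like cells was large, from 32.0 to 4.33 CPM in control and from 35.7 to 3.85 CPM in WMI. Arnt (ENSMUSG00000015522, chromosome 3, 95434388 to 95497240, plus strand) was the most even of the HIF genes, at 77.9 to 138 CPM over the 9 groups of control cells, with no neighbours separated.

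Of the sensors, Egln1 (ENSMUSG00000031987, chromosome 8, 124908587 to 124949324, minus strand) was also even, at 24.3 CPM (16.9 to 33.8) in control microglia-like cells to 41.1 CPM (29.1 to 56.5) in control pre-OL-like cells. Egln3 (ENSMUSG00000035105, chromosome 12, 54178981 to 54203860, minus strand) was scarce, with 126 control and 244 WMI UMIs over all kept cells. Its control levels were 4.12 CPM in inhibitory neuron-like cells, 4.06 CPM in astrocyte-like cells and 1.38 CPM in excitatory neuron-like cells. Within the inhibitory class it was concentrated in cluster 21, led by Adarb2 and Vip, at 10.9 CPM (5.01 to 20.8, 9 UMIs) in control and 22.9 CPM (14.9 to 33.5, 26 UMIs) in WMI. Mature OL-like cells had no Egln3 UMI in either library, with upper limits of the interval at 4.63 and 7.44 CPM.

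Among the targets, Vegfa (ENSMUSG00000023951, chromosome 17, 46016993 to 46032369, minus strand) was mainly a gene of astrocyte-like cells. Control astrocyte-like cells held 132 CPM (118 to 147, 325 UMIs), and pre-OL-like cells came next at 33.6 CPM (22.8 to 47.6). OPC-like cells at 29.1 CPM stood above excitatory neuron-like cells at 16.8 CPM (15.5 to 18.2) by more than counting error. After each cell was thinned to 1000 UMIs, a Vegfa UMI was found in 12.8% of control astrocyte-like cells (9.91 to 16.2, exact Clopper-Pearson 95% interval), against 1.41% of control microglia-like cells (0.517 to 3.03). Without thinning the shares were 44.1% and 3.98%, at median depths of 4925 and 3178 UMIs.

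Pdk1 (ENSMUSG00000006494, chromosome 2, 71873224 to 71903858, plus strand) was highest in cluster 26, at 113 CPM (76.6 to 160) in control and 62.5 CPM (40.4 to 92.2) in WMI. Microglia-like cells followed at 44.4 CPM (34.2 to 56.7) and 52.0 CPM (45.8 to 58.9), and the other classes lay between 13.7 and 31.4 CPM. Ldha (ENSMUSG00000063229, chromosome 7, 46841475 to 46855627, plus strand) ranged from 10.0 CPM in control mature OL-like cells to 43.8 CPM (38.2 to 50.1) in WMI microglia-like cells. By cluster its highest levels lay where depth was low. They were 80.1 CPM (69.5 to 91.9) in the control cells of cluster 2, excitatory neuron-like with a median of 1760 UMIs, and 79.3 CPM (62.6 to 99.2) in the WMI cells of cluster 12, an unnamed cluster led by mitochondrial genes.

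Bnip3 (ENSMUSG00000078566, chromosome 7, 138890836 to 138909519, minus strand) stood between 3.64 and 17.6 CPM in all 9 groups of control cells. Gm45507 and Gm18258 overlap it on the other strand. Ddit4 (ENSMUSG00000020108, chromosome 10, 59949669 to 59951834, minus strand) was scarce, with 128 control and 158 WMI UMIs. Mature OL-like cells had the highest level in both libraries, at 12.5 CPM (6.01 to 23.1, 10 UMIs) and 30.2 CPM (16.9 to 49.9, 15 UMIs), and in WMI this was above the next group, neuroblast-like cells at 8.64 CPM (3.47 to 17.8), by more than counting error.

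The comparison of the libraries asked which members differed between injured and control cortex within a class. The clearest difference lay in microglia-like cells, a class named from markers of microglia, the resident immune cells of the brain. Its WMI cells also carried markers of macrophages and neutrophils, as described below. Hif1a stood at 69.3 CPM (100 UMIs) in control and 129 CPM (628 UMIs) in WMI, a log2 ratio of 0.89 with a counting interval of 0.59 to 1.21. Bnip3 stood at 16.6 CPM (24 UMIs) and 39.1 CPM (191 UMIs), a log2 ratio of 1.23 (0.62 to 1.91). Egln1 stood at 24.3 CPM (35 UMIs) and 38.7 CPM (189 UMIs), a log2 ratio of 0.67 (0.15 to 1.24). For each of the 3 the WMI level lay above the upper limit of the control interval.

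These 3 were the members called higher among the 6 past the UMI minimum, where 16.0% of the 8551 genes past it were called higher in the same cells. No member was called lower, against 5.63% of those genes. Arnt (107 and 120 CPM), Pdk1 (44.4 and 52.0 CPM) and Ldha (30.5 and 43.8 CPM, log2 ratio 0.52, 0.05 to 1.03) were neither. The other 4 members were under the minimum. Of those, Egln3 had 3 control UMIs and 73 WMI UMIs, or 2.08 and 15.0 CPM, a 7.19-fold ratio with a wide interval of 2.37 to 35.7. After thinning, an Egln3 UMI was found in 0 of 427 control cells, which allows a share of up to 0.703% by 3 counts of the total and 0.86% by the exact interval, and in 1.04% of WMI cells (0.584 to 1.71). Without thinning the shares were 0.468% and 3.4%, at median depths of 3178 and 2965.5 UMIs. Among WMI excitatory neuron-like cells, where the CPM was 1.98, the thinned share was 0.293%. Vegfa stood at 11.8 and 11.5 CPM. Epas1 had 2 and 33 UMIs and Ddit4 had 3 and 19.

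**Figure D2:**
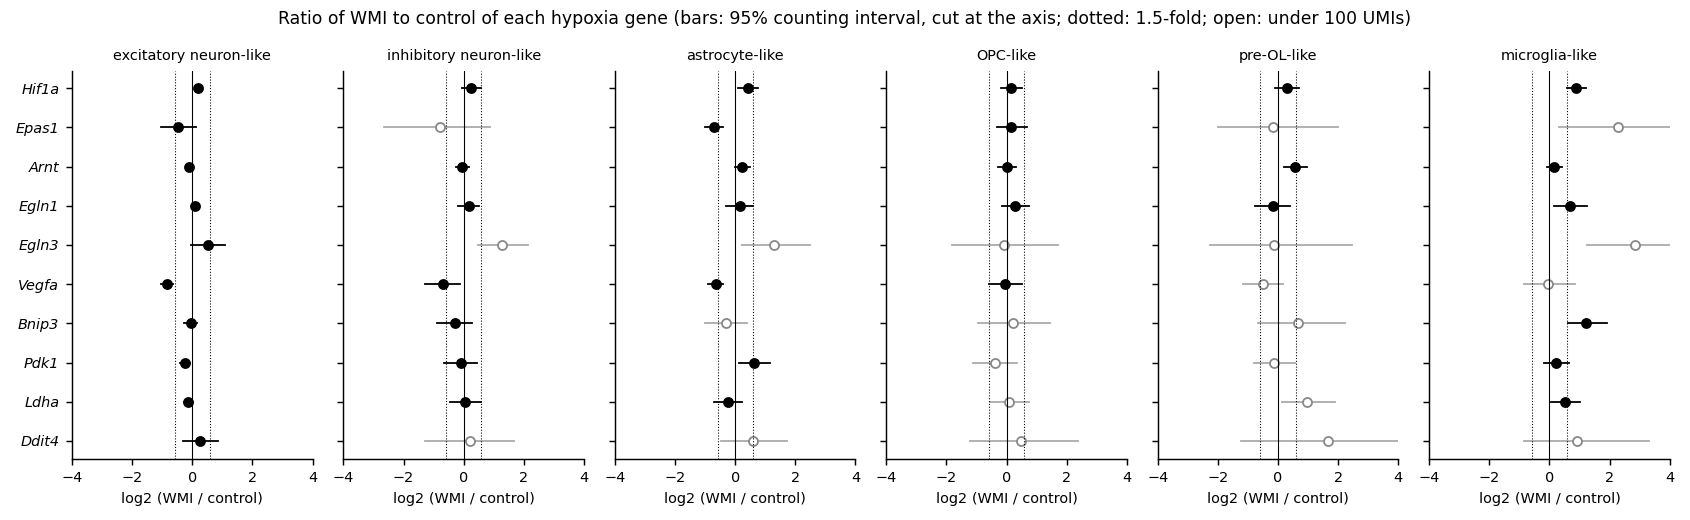
Log2 ratio of WMI to control for each gene in the 6 compared classes, with exact 95% counting intervals, dotted lines at 1.5-fold and open points for genes under 100 UMIs. Hif1a, Egln1 and Bnip3 lie to the right in microglia-like cells (0.89, 0.67 and 1.23), and Vegfa lies to the left in excitatory neuron-like, inhibitory neuron-like and astrocyte-like cells (-0.84, -0.68 and -0.65).

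The class was not made of the same clusters in the 2 libraries. Of the control cells 402 of 427 were in cluster 3, in which all 8 microglia markers passed the marker thresholds, while 772 of the 1440 WMI cells were in cluster 6, led by Apobec1, Abca1, Gpnmb and Igf1. In cluster 6, P2ry12 and Cx3cr1 passed them and Tmem119 and Siglech did not. Cluster 6 had only 15 control cells. Within cluster 3, Hif1a stood at 67.9 CPM in control and 99.6 CPM in WMI (log2 ratio 0.55, 0.19 to 0.92), a 1.47-fold difference that was smaller than in the whole class and under the call. Bnip3 stood at 15.7 and 25.6 CPM (0.71, -0.04 to 1.51) and Egln1 at 25.4 and 28.3 CPM (0.16, -0.47 to 0.81), intervals that both included no difference. Of the 4 members past the minimum in cluster 3, 0 were called higher and 0 lower, where 11.3% and 4.27% of 6016 genes were. Without clusters that came mostly from 1 library, the microglia-like log2 ratios were 0.62 for Hif1a, 0.77 for Bnip3 and 0.19 for Egln1, of which Hif1a alone was called, since Bnip3 then had too few UMIs and Egln1 too small a ratio.

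Inside the WMI library the step from cluster 3 to cluster 6 went the same way. Hif1a was at 99.6 CPM in cluster 3 and 154 CPM in cluster 6 (log2 ratio 0.63, 0.39 to 0.87). Egln1 was at 28.3 and 47.8 CPM (0.75, 0.30 to 1.22), and Bnip3 at 25.6 and 51.3 CPM (1.00, 0.54 to 1.48). Egln3, with 13 and 58 UMIs, was at 5.94 and 22.9 CPM (1.95, 1.06 to 2.94). Of the 6 members past the minimum, 3 were called higher in cluster 6 and 0 lower, where 7.34% and 4.4% of 7384 genes were. Arnt (123 and 118 CPM), Vegfa (11.4 and 10.7 CPM) and Pdk1 (58.0 and 47.0 CPM) did not follow them. Without the 143 and 276 cells of clusters 3 and 6 with a macrophage marker, described next, the log2 ratios were smaller for Hif1a (0.43, 0.13 to 0.73), Bnip3 (0.58, -0.02 to 1.19) and Egln3 (0.99, -0.22 to 2.28), and Egln1 alone was still called (0.87, 0.28 to 1.47).

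**Figure D3:**
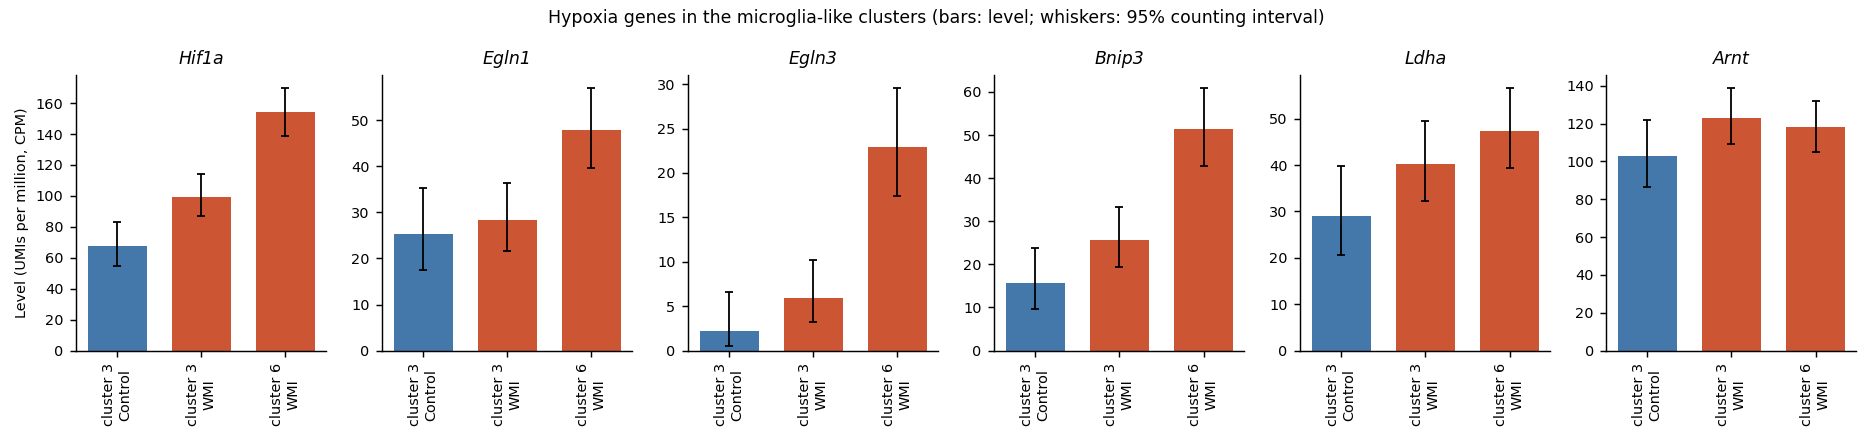
Levels (CPM) of 6 genes in cluster 3 of the control and WMI libraries and in cluster 6 of the WMI library, with whiskers for exact 95% counting intervals. Hif1a steps from 67.9 to 99.6 to 154 CPM and Egln3 from 2.24 to 5.94 to 22.9 CPM, while Arnt stays between 103 and 123 CPM.

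Markers of macrophages and neutrophils also differed between these clusters and libraries. The 6 macrophage markers summed to 64.2 CPM in control and 107 CPM in WMI cluster 3 and to 596 CPM in WMI cluster 6, with all 6 detected in the last. The 4 neutrophil markers were all at 0 in control microglia-like cells and summed to 2.74 CPM in WMI cluster 3 and 130 CPM in WMI cluster 6. The 8 microglia markers summed to 5284 CPM in WMI cluster 3 and 2738 CPM in WMI cluster 6. In the 15 control cells of cluster 6 the macrophage markers summed to 2492 CPM and the microglia markers to 1501 CPM. The macrophage sum of cluster 6 was thus higher in control than in WMI. Leaving out the 30 WMI cells with a neutrophil marker gave log2 ratios of 0.88 for Hif1a, 1.21 for Bnip3, 0.66 for Egln1 and 2.77 for Egln3, close to those with them. Leaving out the 83 control and 431 WMI cells with a macrophage marker gave 0.81 for Hif1a (0.46 to 1.17), 0.91 for Bnip3 (0.21 to 1.68) and 0.44 for Egln1 (-0.16 to 1.07), and the call of Egln1 was lost. In male WMI microglia-like cells the log2 ratios were 0.88 for Hif1a and 1.10 for Bnip3, but 0.29 for Egln1, against 0.75 for Egln1 in female cells. In male cells Hif1a alone was still called, since Bnip3 then had too few UMIs and Egln1 too small a ratio.

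In astrocyte-like cells Vegfa and Epas1 were lower in WMI, while Arnt, also at a high level, was not (96.9 and 114 CPM). The median log2 ratio of the 7 members past the minimum was 0.15, against 0.09 for all genes past it. Vegfa stood at 132 CPM (325 UMIs) in control and 84.1 CPM (264 UMIs) in WMI, a log2 ratio of -0.65 (-0.89 to -0.41). Epas1 stood at 80.7 CPM (199 UMIs) and 49.7 CPM (156 UMIs), a log2 ratio of -0.70 (-1.01 to -0.39). Pdk1 was higher, at 19.1 CPM (47 UMIs) and 29.6 CPM (93 UMIs), a log2 ratio of 0.64 (0.12 to 1.17). With 7 members past the minimum, 1 was called higher and 2 lower, where 11.9% and 5.5% of 7420 genes were. Hif1a (47.9 and 64.0 CPM, log2 ratio 0.42, 0.09 to 0.76) was not called. Egln3, under the minimum with 10 and 31 UMIs, stood at 4.06 and 9.88 CPM (1.28, 0.22 to 2.48).

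The thinned share of astrocyte-like cells with a Vegfa UMI was 12.8% in control and 6.81% in WMI (4.88 to 9.19), at nearly equal median depths of 4925 and 4950 UMIs. For Epas1 the thinned shares were 6.40% and 4.71%, with overlapping intervals. In male WMI cells the log2 ratios were -0.40 for Vegfa, -0.58 for Epas1 and 0.46 for Pdk1, all in the same direction but under the call, with -0.75, -0.80 and 0.73 in female cells. Markers of other cells moved with these levels. In astrocyte-like cells the 8 microglia markers summed to 159 CPM in control and 460 CPM in WMI and the 7 OPC markers to 438 and 884 CPM, while the 8 astrocyte markers summed to 11247 and 9576 CPM. Their part in the differences was not tested.

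The astrocyte-like class held 2 clusters whose balance differed between libraries. Cluster 8, with little Gfap, had 398 control and 347 WMI cells, and cluster 17, led by Gfap and A2m, had 71 and 226. Gfap is the filament protein of fibrous and reactive astrocytes. Vegfa was lower in cluster 17 than in cluster 8 in both libraries, at 91.5 against 138 CPM in control (log2 ratio -0.59, -1.19 to -0.05) and at 25.6 against 117 CPM in WMI (-2.20, -2.81 to -1.64). Epas1 followed the same order, at 45.7 against 86.1 CPM in control (-0.91, -1.78 to -0.15) and 22.0 against 65.4 CPM in WMI (-1.57, -2.25 to -0.94). In WMI 5 members passed the minimum, and 0 were called higher and 2 lower in cluster 17, where 8.92% and 7.34% of 5245 genes were. Calls for the control library are not given here.

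**Figure D4:**
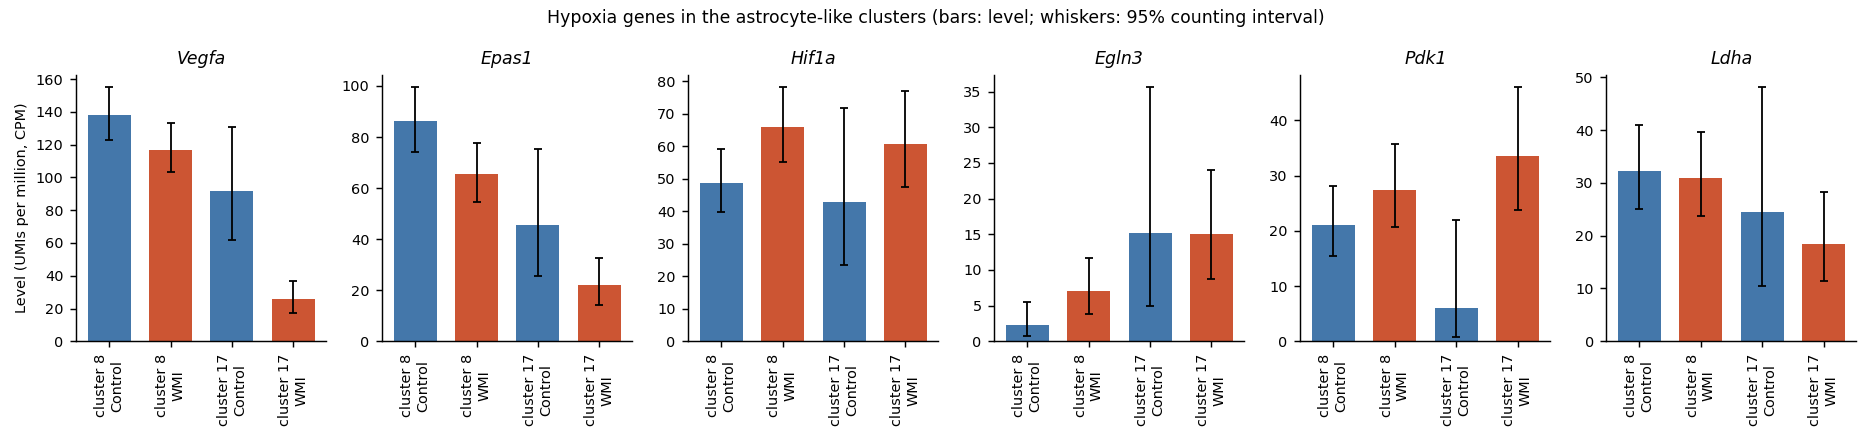
Levels (CPM) of 6 genes in the astrocyte-like clusters 8 and 17 of each library, with whiskers for exact 95% counting intervals. Vegfa is at 138 and 117 CPM in cluster 8 of control and WMI, and at 91.5 and 25.6 CPM in cluster 17.

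Within cluster 8 the difference between libraries was small. Vegfa stood at 138 and 117 CPM (log2 ratio -0.24, -0.49 to 0.02), an interval that included no difference, and Epas1 at 86.1 and 65.4 CPM (-0.40, -0.73 to -0.07). Of the 7 members past the minimum in cluster 8, 0 were called higher and 0 lower, where 8.8% and 5.26% of 6023 genes were. The share of cluster 17 in the class and the level inside it both differed between the libraries, and the part of each in the class value was not tested.

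In excitatory neuron-like cells all 10 members passed the minimum and Vegfa alone was called, lower at 9.37 CPM (303 UMIs) in WMI than at 16.8 CPM (621 UMIs) in control (log2 ratio -0.84, -1.05 to -0.64). Calls of higher were 0 of 10 against 5.33% of 15258 genes, and calls of lower 1 of 10 against 8.25%. The other 9 members had log2 ratios from -0.46 for Epas1 to 0.52 for Egln3. Cluster 2 weighed on the Vegfa value. It held 1174 control and 14 WMI cells of low depth, and its control cells held 71.4 CPM of Vegfa (182 UMIs). Without clusters mostly of 1 library, Vegfa stood at 12.8 and 9.35 CPM, a log2 ratio of -0.45, and the call was lost. That setting still held cluster 9, with 73 control and 550 WMI cells (88.3% from WMI). The make-up of the class thus still differed between the libraries. In male WMI cells the log2 ratio of Vegfa was -0.69, and it was still called. The microglia markers summed to 107 CPM in control and 241 CPM in WMI excitatory neuron-like cells, and their part was not tested. Over the 6 excitatory clusters with at least 100 cells in each library, Vegfa was lower in WMI in 5, with log2 ratios from -1.18 to 0.1. Hif1a was higher in WMI in 6, by log2 ratios of 0.14 to 0.80. Arnt was lower in WMI in 6, but its log2 ratios ran from -0.31 to 0.0, almost no difference at the upper end. These clusters are parts of the same 2 libraries, so their agreement is not replication. The share of all genes with a like agreement was not computed.

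Inhibitory neuron-like cells showed the same member. Vegfa stood at 16.5 CPM (80 UMIs) in control and 10.3 CPM (39 UMIs) in WMI, a log2 ratio of -0.68 (-1.27 to -0.11). In male WMI cells the value was also -0.68, but with too few UMIs to be called, and the call was lost as well at clustering resolution 0.4 (-0.41) and with each cell counted once (-0.48). The microglia markers summed to 101 and 281 CPM in these cells. Of 7 members past the minimum 0 were called higher and 1 lower, where 4.99% and 3.27% of 8384 genes were. Egln3, under the minimum, stood at 4.12 CPM (20 UMIs) and 10.0 CPM (38 UMIs), a log2 ratio of 1.28 (0.47 to 2.14). Cluster 21, in which Egln3 was concentrated, held 85 of 469 control and 119 of 377 WMI cells.

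Within the oligodendrocyte lineage, no member was called at the main setting in the classes compared, and mature OL-like cells were not compared. Many members lay under the minimum there, and calls were rare among all genes. The absence of calls therefore says little about the members. In OPC-like cells 5 members passed the minimum, 0 were called higher and 0 lower, where 5.07% and 2.54% of 6056 genes were. Epas1 stood at 32.0 and 35.7 CPM (log2 ratio 0.16, -0.33 to 0.67) and Vegfa at 29.1 and 28.3 CPM (-0.04, -0.58 to 0.50). Egln1 stood at 35.9 and 44.0 CPM (0.29, -0.16 to 0.76). The intervals of Epas1 and Egln1 reached past 1.5-fold on the higher side. Hif1a was at 66.1 and 73.5 CPM (0.15, -0.19 to 0.50), an interval inside 1.5-fold. In male WMI cells 0 members were called either. The microglia markers summed to 162 CPM in control and 448 CPM in WMI OPC-like cells.

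In pre-OL-like cells 3 members passed the minimum, 0 were called higher and 0 lower, where 6.65% and 4.96% of 4961 genes were. Arnt stood at 77.9 CPM (72 UMIs) in control and 116 CPM (270 UMIs) in WMI, a log2 ratio of 0.57 (0.19 to 0.96), just under the call. In male WMI cells it was 0.75, and Arnt was called higher. The microglia markers summed to 137 CPM in control and 444 CPM in WMI pre-OL-like cells. Ldha, under the minimum, stood at 15.2 CPM (14 UMIs) and 29.5 CPM (69 UMIs), a log2 ratio of 0.96 (0.12 to 1.91). The intervals of Arnt and Ldha, which cover counting error only, both excluded no difference.

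The other genes of the pathway were described with a list of 62, whose members past the UMI minimum numbered 18 to 48 by class. In microglia-like cells 11 of 36 were called higher and 0 lower, where 16.0% and 5.63% of all genes past the minimum were, with a median log2 ratio of 0.32 against 0.10 for those genes. They included Nrp2 (49.9 and 148 CPM) and Nrp1 (278 and 616 CPM), co-receptors of VEGF, and Pfkl (13.2 and 29.1 CPM), a phosphofructokinase of glycolysis. Pfkl had 19 control and 142 WMI UMIs, so it passed the minimum mainly through WMI. Of the 16 measured genes of glucose uptake and glycolysis 6 were called higher there, and of the 9 measured sensors and regulators 0, against the same 16.0%. The lowest log2 ratios, -0.52 for Egln2, -0.31 for Elob and -0.30 for Arnt2, all had intervals that included no difference.

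In astrocyte-like cells 3 of 33 were called higher and 2 lower, near the 11.9% and 5.5% of all genes. Hif3a, whose product opposes the other HIF alpha subunits, had the largest difference of the list. It stood at 157 CPM (387 UMIs) in control and 23.6 CPM (74 UMIs) in WMI, a log2 ratio of -2.73 (-3.11 to -2.37). This value was taken over the whole class only. The balance of its clusters differed between the libraries, as described above, and the part of that in the Hif3a value was not tested. Gapdh (-0.71) was also called lower, and Pgk1 (-0.58) lay at the edge of the call, both being enzymes of glycolysis. Slc16a1, a lactate transporter (8.52 and 26.8 CPM, log2 ratio 1.65), Nrp2 (29.6 and 76.1 CPM, 1.36) and Bhlhe40 (18.3 and 27.4 CPM, 0.59) were called higher. Slc16a1 had 21 control and 84 WMI UMIs, so it passed the minimum mainly through the library where it was higher.

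In excitatory neuron-like cells 4 of 48 were called higher and 3 lower, where 5.33% and 8.25% of all genes were. The highest were Hk2 (0.677 and 2.85 CPM), Nrp2 (26.0 and 80.4 CPM) and Car12 (3.55 and 10.5 CPM). The lowest were Aldoc (8.26 and 4.83 CPM), Gapdh (43.9 and 28.1 CPM) and Elob (17.1 and 11.4 CPM). Hk2 had 25 control and 92 WMI UMIs, so it passed the minimum mainly through WMI. In inhibitory neuron-like cells 3 of 35 were called higher, Nrp2 (1.86), Nrp1 (0.88) and Pfkl (0.63), and 1 lower, P4ha2 (-0.81), where 4.99% and 3.27% of all genes were, and Ero1l (-0.51) and Hk1 (-0.34) were the next lowest. In OPC-like cells 1 of 20 was called higher, Nrp2 (0.63), and 0 lower, where 5.07% and 2.54% of all genes were, with Gpi1 (0.46) and P4ha1 (0.40) next and Rbx1 (-0.40), Gapdh (-0.39) and Pkm (-0.33) lowest. In pre-OL-like cells 0 of 18 were called higher and 0 lower, where 6.65% and 4.96% of all genes were, and the extremes were Plod2 (0.54), Mxi1 (0.51), Ep300 (0.29), Gapdh (-0.51), Pfkp (-0.32) and Kdm3a (-0.21). Nrp2 was called higher in 5 of the 6 classes. All 6 comparisons used the same 2 libraries, so these calls are not independent. The share of all genes called higher in as many classes was not computed. Ratios of these other pathway genes were not recalculated in male WMI cells or without clusters mostly of 1 library. Free RNA of microglia, sex and mitochondrial share also differed between the libraries, and their part was not tested.

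**Figure D5:**
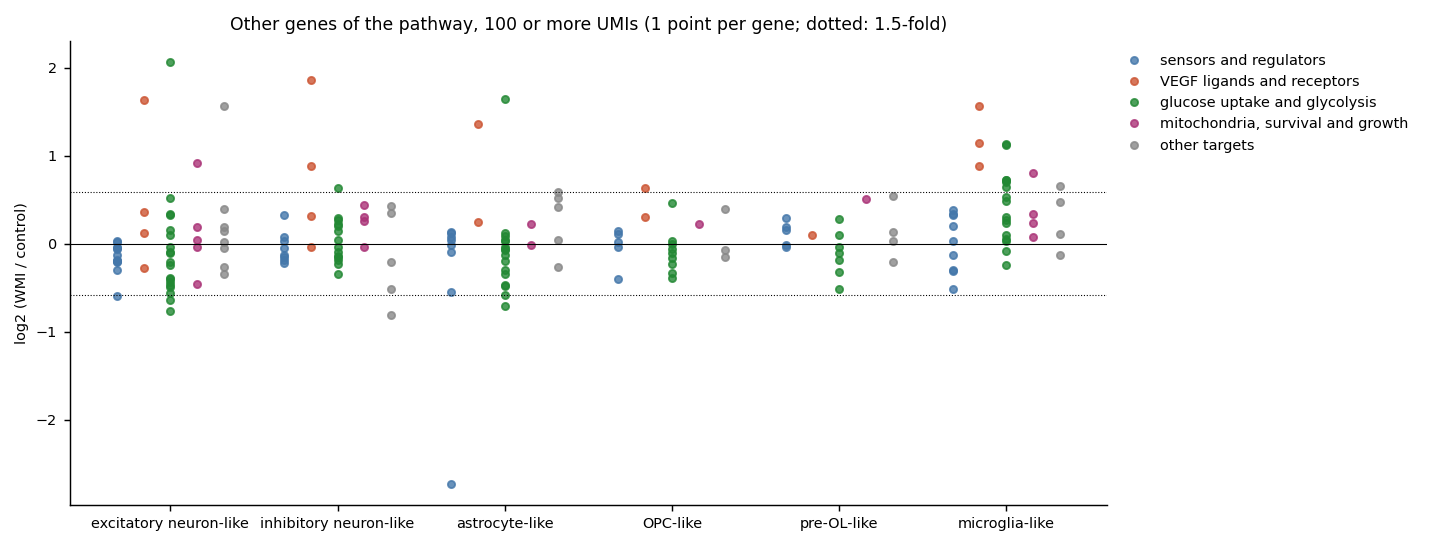
Log2 ratio of WMI to control of each of the other pathway genes with at least 100 UMIs, by class and role, 1 point per gene, with dotted lines at 1.5-fold. Points of glycolysis and VEGF receptors lie above the upper line in microglia-like cells, and Hif3a lies at -2.73 in astrocyte-like cells.

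Likeness of pattern was measured by Pearson's r of log2(CPM + 10) over 12 summed profiles, 6 classes by 2 libraries, which share libraries and free RNA, so it is a description only. For Epas1 the most alike genes were Gm27239 and Hes5 (r = 0.980 each) and Cyp4f17 (0.978), and for Vegfa they were Tbcel (0.974), Ppara (0.972) and Fam228b (0.968). For Hif1a they were Lhfpl2 (0.977), Ubap1 (0.975) and Gm47139 (0.968), for Egln3 Ddit3 (0.952), Acaa2 (0.912) and Nfkbiz (0.881), and for Bnip3 Msl3 (0.944), Lyst (0.938) and Dnajc13 (0.937). For Ddit4 they were Clu (0.967), Oplah (0.948) and Aqp4 (0.946), and for Pdk1 Ssu72 (0.969), Tbk1 (0.960) and Trim41 (0.958). The profiles leave out mature OL-like cells, where Ddit4 stood highest. In those used Ddit4 lay at 1.08 to 7.33 CPM, under the 10 added to each value. For Ldha the most alike genes were Polr2e (0.941), Tmem14c (0.933) and Ube2a (0.927), for Arnt Dido1 (0.961), Socs4 (0.950) and Sumo3 (0.943), and for Egln1 Cfdp1 (0.869), 2700029L08Rik (0.854) and Nup160 (0.853).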

How the data were processed

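The deposited files hold UMI counts per gene and barcode for 2 droplet libraries of mouse cortex, made by the authors with Cell Ranger 6.1.1 per the file headers and not normalized. The submitters' processing notes name mm9, but each of the 55450 genes in the table has the same identifier and symbol in GENCODE M21 (GRCm38), whose coordinates are given.

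Barcodes with at least 1000 UMIs, at least 500 genes and at most 10% mitochondrial UMIs were used, which left out 748 control and 241 WMI barcodes. Predicted doublets (scanpy 1.11.5, Scrublet; 0.8% per 1000 barcodes; 785 and 542) were removed. Of 500 artificial doublets added per library, 64.6% and 54.2% were among those removed, so doublets remain. Cells were integrated and clustered in Seurat 5.3.0 (R 4.3.3; 2000 features, 30 dimensions, resolution 0.8), without the members, the other pathway genes and cell cycle genes. Clusters were named from marker lists, with thresholds chosen after the clusters were seen, and no annotation of the authors was used.

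Counts were summed per class and library. Levels carry exact Poisson intervals and ratios exact conditional binomial intervals at 95%, and the interval code was checked on simulated counts. These cover counting error only, since each group had 1 library. Shares were taken after thinning cells to 1000 UMIs. The genes named are the 10 members, the 3 highest and 3 lowest ratios of the other pathway genes in each class among those with at least 100 UMIs, and the 3 genes most like each member among those with at least 200 UMIs. Genes outside that rule (Snap25, Xist and marker genes) describe the libraries. The members and lists were chosen with earlier results of these data known.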

Additional observations from a re-analysis of the deposited data

How the results depend on the processing

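Counts of called members changed by more than 1.5 times in 25 of 160 recalculations, many of which started from a main count of 0. Called higher in astrocyte-like cells (1 in the main setting) were 0 with predicted doublets kept, relative to the median gene, in male WMI cells and at 2-fold, and 3 with no UMI minimum; called lower (2) were 0 in male WMI cells and at 2-fold. In excitatory neuron-like cells 1 was called higher and 0 lower without clusters mostly of 1 library, and lower calls were 3 with each cell counted once and 0 at 2-fold. In inhibitory neuron-like cells 1 was called higher with a UMI minimum of 50 or none, and lower calls were 0 at resolution 0.4, with each cell counted once, in male WMI cells and at 2-fold, and 2 with no minimum. In microglia-like cells higher calls (3) were 1 without clusters mostly of 1 library, in male WMI cells and at 2-fold, and 6 with no minimum. In pre-OL-like cells higher calls were 1 in male WMI cells and with a minimum of 50, and 3 with none. Fewer UMIs pass the minimum in male cells. Of 392 recalculated log2 ratios 383 stayed inside the counting interval of the main value, and no called ratio changed direction. Most settings reuse most of the same counts, so this agreement is no independent check. Vegfa in excitatory neuron-like cells ranged from -1.50 (each cell counted once) to -0.45. The cause of these shifts was not tested. Leaving out cells with neutrophil or macrophage markers was chosen after seeing the data. No paired analysis was possible because each group had 1 library. Depth limited Egln3 and Ddit4 most, and no spread between animals could be estimated.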
